A study of Mus musculus with 6 samples.

Results

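Immediate early genes are the first genes a cell transcribes after a stimulus, and the 10 taken here by name, Fos, Fosb, Jun, Junb, Egr1, Atf3, Dusp1, Ier2, Nr4a1 and Zfp36, were all among the 22026 gene symbols of the data. RNAseq was carried out on choroid ECs, the endothelial cells of the vessels behind the retinal pigment epithelium (RPE), from 129/B6 mice at postnatal day 5 (P5) and postnatal day 30 (P30). Each age had 3 independent isolations, with the RPE/choroid of 7 animals pooled in each, so an isolation is a pool and not an animal. The cells were labelled in the living animal with an antibody to VE-Cadherin, released by enzymatic digestion of the RPE/choroid, and sorted by fluorescence, and their RNA was taken without culture. P5 mice were anaesthetised by hypothermia and received less antibody than P30 mice, so age and these differences in handling cannot be told apart.

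Immediate early genes need no new protein synthesis for their induction. Kinase cascades such as the ERK pathway act on factors already bound at their promoters, among them SRF with its Elk partners and CREB, and the transcripts appear within minutes and decay quickly. Fos and Jun proteins pair as the transcription factor AP-1, Egr1 and Nr4a1 are transcription factors of their own families, and Dusp1 and Zfp36 encode inhibitors of the response. These genes are also known to be induced when tissue is dissociated and cells are sorted, and in ECs by flow and growth factors.

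The 10 genes were short and had few exons, which the choice by name did not use. In the GENCODE annotation of mm9 their median span was 3286.5 bases, from 1522 to 13045, against a median of 23652 over the 11946 tested genes with a single protein-coding gene model. They had a median of 3 exons against 9. Ier2 (chromosome 8, 87185230 to 87186751 of mm9), Junb (chromosome 8, 87500811 to 87502617) and Jun (chromosome 4, 94715725 to 94718913) had 1 exon each. A transcript on the opposite strand overlapped Jun over 689 bases and Egr1 over 200 bases, and neither was listed in the data. Whether the counting used strand is not given in the sources used here, so reads of these pairs may not be separable.

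The upstream sequences of Fos, Nr4a1 and Dusp1 are shown because the 250 bases before their start sites held the motif TGACG, the half-site of the cyclic AMP response element to which CREB binds, more than once on either strand. The sequences are those of RefSeq (GRCm38.p6), read 5′ to 3′ along the gene, and capitals mark TGACG or its reverse complement CGTCA.
Fos (chr12:85473640-85473889, plus strand): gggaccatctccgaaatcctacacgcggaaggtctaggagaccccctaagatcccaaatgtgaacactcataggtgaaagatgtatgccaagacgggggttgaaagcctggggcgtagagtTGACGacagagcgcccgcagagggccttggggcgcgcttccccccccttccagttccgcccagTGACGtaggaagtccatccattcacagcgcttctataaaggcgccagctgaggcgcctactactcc
Nr4a1 (chr15:101266596-101266845, plus strand): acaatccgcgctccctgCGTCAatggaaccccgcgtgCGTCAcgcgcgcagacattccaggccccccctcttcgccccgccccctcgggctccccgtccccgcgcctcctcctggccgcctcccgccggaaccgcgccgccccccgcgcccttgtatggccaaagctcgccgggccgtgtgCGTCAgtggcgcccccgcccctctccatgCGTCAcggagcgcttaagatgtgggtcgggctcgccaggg
Dusp1 (chr17:26508473-26508722, minus strand): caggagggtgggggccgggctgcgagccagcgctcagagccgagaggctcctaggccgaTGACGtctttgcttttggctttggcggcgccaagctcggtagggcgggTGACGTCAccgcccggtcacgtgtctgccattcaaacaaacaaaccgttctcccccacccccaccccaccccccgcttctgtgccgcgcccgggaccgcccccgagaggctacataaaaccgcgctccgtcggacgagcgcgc

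Of the 8 genes with an entry in the promoter table, 6 (Fos, Fosb, Junb, Atf3, Nr4a1 and Dusp1) held TGACG on either strand in these 250 bases, against 17.8% of all 32851 promoters and 26.2% of the 11294 promoters of tested genes. Egr1 and Ier2 were the genes without an entry. The run of 8 capitals in Dusp1 is the full palindrome TGACGTCA, which holds the half-site on both strands and was present in 2.61% of the promoters of tested genes. The CArG box, the motif of SRF, was found on either strand in Zfp36 alone, 58 bases before the start, and in 1.25% of the promoters of tested genes. GCGGGGGCG, a motif of Egr proteins, was found on either strand in Fosb, Nr4a1 and Zfp36 and in 4.74% of the promoters of tested genes. TGANTCA, the motif of AP-1, is its own reverse complement apart from its middle base and was in none of the 8, against 4.37%. These matches describe letters in a window and do not show that a factor was bound. Sequence further upstream or within the genes was not searched for these motifs. A motif missing from the window may therefore lie elsewhere at the same gene.

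The 3′ ends of the transcripts were searched on the sense strand for TATTTAT, the core of the AU-rich element to which the protein encoded by Zfp36 binds, which hastens the decay of the mRNA. It was found in the 3′ untranslated region of 6 of the 10 genes (Fos, Fosb, Jun, Atf3, Dusp1 and Zfp36), against 27.5% of the 5887 tested genes with a 3′ untranslated region of 483 to 2120 bases, the range of the 10. The sites in Fos and Zfp36 are shown with 10 bases on each side, in the letters of the genome, because the former is the most abundant of the 10 transcripts and the latter encodes the binding protein itself. Capitals mark the motif, and positions are those of the motif in mm9.
Fos (chr12:86818064-86818070, plus strand): gttttcaattTATTTATtaagatggat
Fos (chr12:86818088-86818094, plus strand): gattctcagaTATTTATatttttattt
Zfp36 (chr7:29161996-29162002, minus strand): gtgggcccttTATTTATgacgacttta
Zfp36 (chr7:29161981-29161987, minus strand): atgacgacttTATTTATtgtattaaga
Zfp36 (chr7:29161956-29161962, minus strand): gattttatagTATTTATatatattggg

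Expression was measured as FPKM, the sequenced fragments of a gene scaled to transcript length and to the size of the library, so levels can be compared between genes of a sample. Read counts were not used here, so depth is unknown and no counting error is given. The share of symbols listed at 0 was between 33.4% and 37.3% in the 6 isolations. All 12 genes of an endothelial list were detected at both ages, with summed FPKM of 25614 to 28263 at P5 and 37041 to 45894 at P30. In 8 of the 12 every P30 isolation lay above every P5 isolation, and in 1 below, against 22.0% and 33.0% of all genes tested. Past the limits given below, 1 rose and 0 fell, against 5.89% and 5.82%. The gene that rose was Plvap, with 4692 ± 140.2 FPKM at P5 and 11590 ± 2515 at P30 (SD, n = 3). Cdh5, which encodes VE-Cadherin, the protein used for the sort, was lower at P30. It had 2971 ± 95.4 and 1885 ± 52.4 FPKM (SD, n = 3, limma adjusted p = 0.00205, under 2-fold). The ages overlapped for Pecam1. Cdh5 and Pecam1 lie outside the rule for named genes. Several libraries shared a sequencing lane, and which lane held which isolation is not given in the sources used here, so lane and age may not be separable.

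All 10 immediate early genes were higher at P30 than at P5, between 3.62-fold for Ier2 and 14.2-fold for Atf3 in mean FPKM, with a median of 4.76-fold. The summed FPKM of the 10 genes was 14067 in P5 replicate 1, 9235 in replicate 2 and 8922 in replicate 3, against 50306, 63647 and 51015 at P30 in the same order. Their share of all FPKM was 0.733% ± 0.192 at P5 and 3.33% ± 0.308 at P30 (SD, n = 3 each). The ages did not overlap in any of the 10 genes. The P30 isolations all lay above the P5 isolations in 22.0% of the 12481 genes tested, and below them in 33.0%. For a single gene, an exact two-sided permutation test of 3 against 3 isolations cannot go below p = 0.1. With limma on log2(FPKM + 1), all 10 passed an adjusted p (Benjamini-Hochberg over all genes tested) under 0.01 with at least 2-fold in mean FPKM + 1, against 5.89% of the genes tested that did so in this direction and 5.82% in the other. The median log2 fold change was 2.27 for the 10 genes, with a range of 1.87 to 3.81, and -0.10 over all genes tested. In 16 of 17 alternative settings all 10 passed, but with no minimum on FPKM only Atf3, Ier2 and Zfp36 did, and the other 7 had an adjusted p between 0.0116 and 0.135 from limma. Scaling every isolation to an equal sum of FPKM moved the median of all genes to -0.27, the 10 log2 fold changes to between 1.70 and 3.64, and the calls over all genes from 735 higher and 726 lower at P30 to 632 and 1070.0. In bulk RNA, more cells that express a gene cannot be told apart from more RNA per cell.

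**Figure D1:**
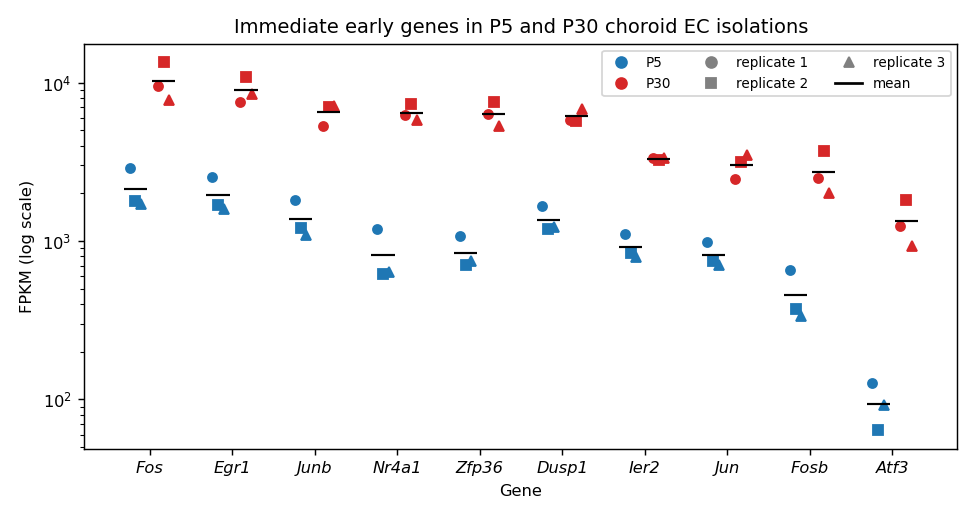
FPKM on a log axis of the 10 immediate early genes in each isolation, blue for P5 and red for P30, with a symbol for each replicate number and a black bar for the mean of 3 isolations. The red and blue points do not overlap for any gene, and the P5 circle (replicate 1) is the highest of the blue points in each.

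Fos encodes the Fos subunit of AP-1, which binds DNA only with a partner such as Jun. At P5 its FPKM was 2905, 1796 and 1709 in replicates 1 to 3, and at P30 it was 9471, 13405 and 7793, which is the order kept for the other genes. The lowest P30 isolation was 2.68 times the highest P5 isolation, and the spread within each age was large, with P30 replicate 2 at 1.72 times replicate 3. The log2 fold change was 2.26 (SE of 0.26 and a limma adjusted p = 0.000926). Fos ranked 17, 52 and 50 among all symbols in the P5 isolations and 4, 2 and 8 in the P30 isolations.

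Fosb, a paralog of Fos with the same role in AP-1, had an FPKM of 658, 373 and 338 at P5 and 2501, 3708 and 2005 at P30. The isolations kept the same order as for Fos within each age. The log2 fold change was 2.60 (SE of 0.30 and a limma adjusted p = 0.000903). The ratio of Fos to Fosb within a sample was 4.76 ± 0.326 at P5 and 3.76 ± 0.138 at P30 (SD, n = 3 each), with no overlap between ages.

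Jun, the partner of Fos that can also bind DNA as a pair with itself, had an FPKM of 983, 749.7 and 705 at P5 and 2467, 3136 and 3466 at P30. P30 replicate 3 was here the highest and replicate 1 the lowest, unlike for Fos. Its log2 fold change of 1.90 (SE of 0.17 and a limma adjusted p = 0.000378) was near the low end of the 10 genes. Junb, a Jun paralog that is a weaker activator and can hold Jun back, had 1812, 1216 and 1089 at P5 and 5327, 7036 and 7155 at P30. Its log2 fold change was 2.27 (SE of 0.21 and a limma adjusted p = 0.000408), and the isolations stood in the same order as for Jun. The ratio of Junb to Jun was 1.67 ± 0.154 at P5 and 2.16 ± 0.0894 at P30 (SD, n = 3), again with no overlap.

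Atf3, a stress-induced factor of the ATF family that can pair with Jun and often acts as a repressor, had the lowest level of the 10 genes and the widest difference. Its FPKM was 126, 63.8 and 91.7 at P5 and 1241, 1825 and 931 at P30, so the lowest P30 isolation was 7.37 times the highest P5 isolation. The log2 fold change was 3.81 (SE of 0.30 and a limma adjusted p = 0.000255), rank 72 among the 12481 genes tested. The ratio of Atf3 to Jun was 0.115 ± 0.0255 at P5 and 0.451 ± 0.163 at P30 (SD, n = 3).

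Egr1, a zinc finger factor, had an FPKM of 2550.03, 1694 and 1599.7 at P5 and 7585, 10804 and 8413 at P30. It was the second most abundant of the 10 genes at both ages, after Fos, and ranked 8, 3 and 5 among all symbols in the P30 isolations. Its log2 fold change was 2.21 (SE of 0.21 and a limma adjusted p = 0.000452). Nr4a1, an orphan nuclear receptor, had 1191, 615 and 635 at P5 and 6274, 7274 and 5820.2 at P30. The P30 isolations were close to each other, and the log2 fold change of 3.05 (SE of 0.25 and a limma adjusted p = 0.000284) was second to that of Atf3. The P5 isolations differed more, with replicate 1 at 1.94 times replicate 2.

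The inhibitors of the response were higher at P30 as well. Dusp1, a phosphatase that inactivates p38, JNK and ERK kinases, had an FPKM of 1651, 1186 and 1219.7 at P5 and 5826, 5721 and 6769 at P30 (log2 fold change 2.19 with an SE of 0.16 and a limma adjusted p = 0.000181). Zfp36, which encodes the AU-rich element binding protein named above, had 1077, 703 and 744 at P5 and 6293, 7489 and 5299 at P30 (log2 fold change 2.93 with an SE of 0.20 and a limma adjusted p = 0.000160). Its lowest P30 isolation was 4.92 times the highest P5 isolation. Ier2, a nuclear protein whose function is less well known, had 1114, 839 and 791 at P5 and 3322, 3247 and 3364 at P30 (log2 fold change 1.87 with an SE of 0.14 and a limma adjusted p = 0.000213). The 3 P30 values of Ier2 lay within 1.04-fold of each other, the narrowest range of the 10 genes.

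**Figure D2:**
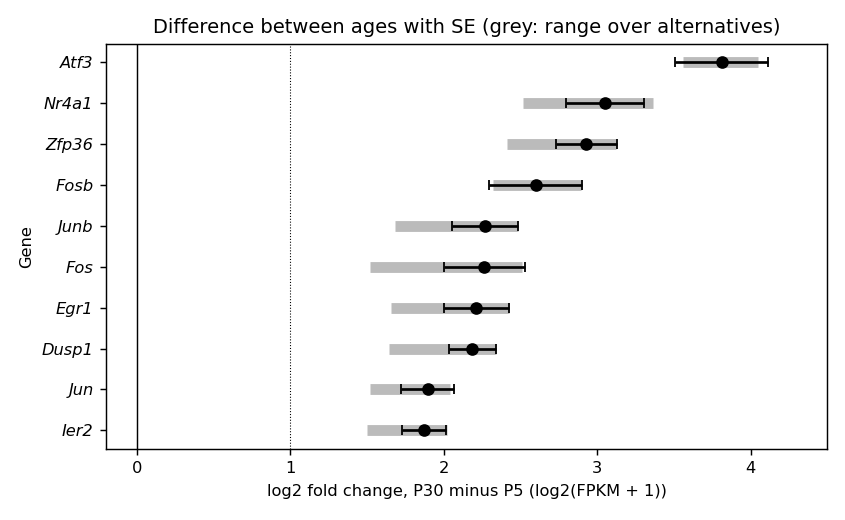
Difference between ages of the 10 genes on the scale of log2(FPKM + 1), with points for the limma coefficient, bars for its SE, and grey bands for the range over 17 alternative settings; the solid line marks no difference and the dotted line 2-fold. All points and bands lie to the right of the dotted line, from 1.87 for Ier2 to 3.81 for Atf3.

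The order of the levels was much the same at both ages at its ends and differed in its middle. At P5 the order of mean FPKM was Fos, Egr1, Junb, Dusp1, Ier2, Zfp36, Nr4a1, Jun, Fosb and Atf3. Neighbours did not overlap between Dusp1 and Ier2, Jun and Fosb, and Fosb and Atf3, and all other neighbours did. At P30 the order was Fos, Egr1, Junb, Nr4a1, Zfp36, Dusp1, Ier2, Jun, Fosb and Atf3, and neighbours did not overlap between Egr1 and Junb, Dusp1 and Ier2, and Fosb and Atf3. Of the 10 genes, 6 were among the 20 most abundant symbols in each P30 isolation, against 1, 0 and 0 in P5 replicates 1, 2 and 3.

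Some ratios between the genes did not overlap between the ages. Among 10 within-sample ratios, chosen after the values had been seen, the ages did not overlap in 5. These were Fos to Fosb, Junb to Jun, Atf3 to Jun, Zfp36 to Fos and Nr4a1 to Fos. Each had p = 0.1 in a two-sided exact permutation test, which 3 against 3 cannot go below, and 0.2 after adjustment over the 10. Of the single genes tested, 22.0% did not overlap with P30 higher and 33.0% with P5 higher. A count of 5 of 10 is near that background. The ratio of Zfp36 to Fos was 0.399 ± 0.0328 at P5 and 0.634 ± 0.0660 at P30, and that of Nr4a1 to Fos was 0.375 ± 0.0338 and 0.651 ± 0.103 (SD, n = 3). The ratios of Fos to Egr1, 1.09 ± 0.0434 at P5 and 1.14 ± 0.184 at P30 (SD, n = 3), and of Fos to Junb, 1.55 ± 0.0656 and 1.59 ± 0.439 (SD, n = 3), overlapped. A ratio within a sample does not depend on how the sample was scaled.

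**Figure D3:**
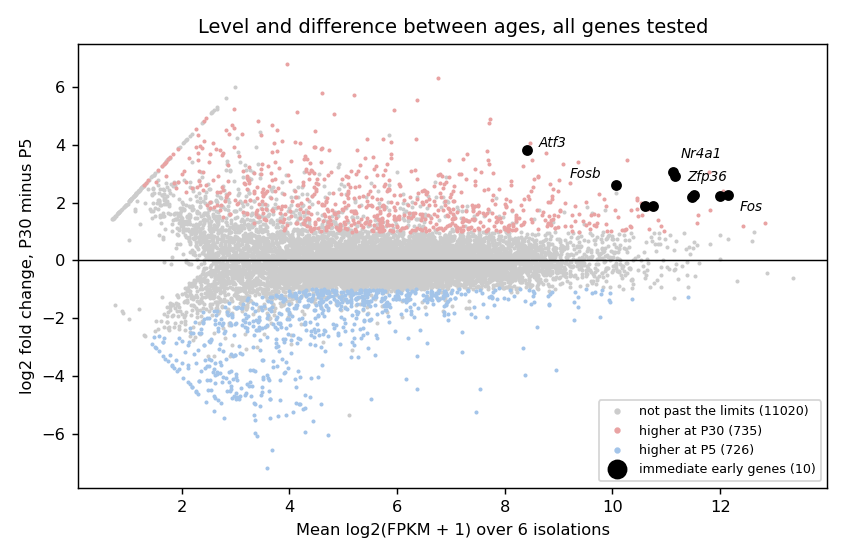
Difference between ages (P30 minus P5, log2) against the mean level (log2(FPKM + 1) over 6 isolations) of all 12481 genes tested, red for the 735 higher at P30 and blue for the 726 higher at P5 past the limits, with the 10 immediate early genes in black and 5 of them named. The black points lie at the right, among the most abundant genes, and the lowest lies at 1.87.

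Within P5, the isolations were not alike in these genes. P5 replicate 1 was the highest of the P5 isolations for all 10 genes, by a median of 0.64 on the log2 scale over the mean of replicates 2 and 3 (from 0.44 for Jun to 0.93 for Nr4a1), while it was the highest of the 3 for 36.3% of all genes tested. P5 replicates 2 and 3 differed by a median of 0.08, and by at most 0.52, for Atf3. The SD of log2(FPKM + 1) between the P5 isolations had a median of 0.38 over the 10 genes, against 0.13 over all genes tested and 0.10 over the 3714 genes tested with a mean FPKM of at least 100. Each of the 10 genes lay between the 79.1 and 94.8 percentile of this spread. Without P5 replicate 1 all 10 genes still passed the limits, with log2 fold changes of 2.02 to 4.05.

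At P30 the median SD of the 10 genes was 0.25, near the 0.26 over all genes tested. It was above the 0.18 over those with a mean FPKM of at least 100. The 10 genes lay between the 1.1 (Ier2) and 77.2 (Atf3) percentile of this spread over all genes tested. P30 replicate 2 was the highest for Fos, Fosb, Egr1, Atf3, Nr4a1 and Zfp36, and replicate 3 for Jun, Junb, Dusp1 and Ier2. Of the other 9 genes, the one whose log2(FPKM + 1) followed that of Fos most closely over the 6 isolations was Fosb (Pearson r = 0.9998), and for Jun it was Junb (r = 0.998), for Dusp1 Ier2 (r = 0.998), for Atf3 Zfp36 (r = 0.997), and for Egr1 and Nr4a1 they were Nr4a1 (r = 0.995) and Zfp36 (r = 0.997). The difference between ages that all 10 share enters each r, which is a description over 6 points. Outside the 10, 81 genes tested reached an r of at least 0.99 with the mean profile of the 10 genes. The 5 with the highest r were Sertad1 (0.999), Csrnp1 (0.998), Id3 (0.998), Ctsl (0.998) and Sema3c (0.998), with log2 fold changes of 2.21, 3.47, 1.18, 1.38 and 2.63.

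**Figure D4:**
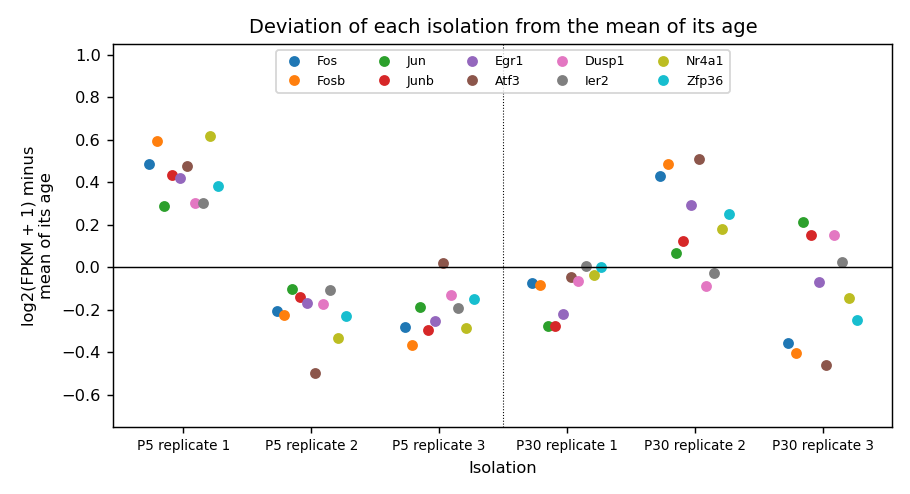
Deviation of each isolation from the mean of its age in log2(FPKM + 1), with 1 colour per gene. All 10 genes lie above 0 in P5 replicate 1, and at P30 Fos, Fosb and Atf3 lie above Jun, Junb and Dusp1 in replicate 2 and below them in replicate 3.

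The relatives of these genes were in part higher at P30 too. Of the other AP-1 and Maf genes, 14 were tested, 7 rose and 0 fell past the limits, against 5.89% and 5.82% of all genes tested. Their median log2 fold change was 1.04. Jund, the Jun paralog usually held to be steadily expressed, had 186 ± 44.9 FPKM at P5 and rose to 1151 ± 259 at P30 (SD over 3 isolations, log2 fold change 2.62 with an SE of 0.22 and a limma adjusted p = 0.000297). Fosl2, another Fos paralog, rose by 2.54 on the log2 scale. The small Maf genes Maff and Mafk, which encode partners without an activation domain, rose by 3.48 and 2.59, while Mafg, at 0.93, did not reach 2-fold. Jdp2, Batf2 and Atf4 rose by 1.59, 1.62 and 1.15. Atf2, Atf7, Batf and Maf had log2 fold changes between -0.43 and 0.34 and did not pass. Batf3 had 7.30 ± 2.75 at P5 and 1.12 ± 1.95 at P30 (SD, n = 3, adjusted p = 0.0363 from limma). Fosl1, at 0.290 ± 0.165 and 3.91 ± 3.54 FPKM (SD, n = 3), was below the minimum of the fit, and its ages overlapped.

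All 4 tested paralogs of Egr1 and Nr4a1 rose past the limits, against 5.89% of all genes tested. Egr2 rose from 44.2 ± 15.2 to 187 ± 71.9 FPKM and Egr3 from 13.0 ± 4.65 to 110 ± 38.8 (SD, n = 3), by 2.03 and 2.98 on the log2 scale. Nr4a3 rose by 3.51, from 5.44 ± 3.10 to 78.4 ± 52.1 FPKM, and Nr4a2 from 140 ± 47.5 to 391 ± 106 (SD, n = 3, adjusted p = 0.00474 from limma). Nr4a2 kept its call in 11 of 17 alternatives. Egr4 was below the minimum, at 0.573 ± 0.547 and 3.55 ± 2.60 FPKM (SD, n = 3). Nab1 and Nab2, which encode corepressors of Egr proteins, had log2 fold changes of 0.39 and 0.53 and did not reach 2-fold.

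Of the other Ier and Zfp36 genes, Ier3, Ier5 and Ier5l rose by 1.08, 1.13 and 1.40 on the log2 scale, and kept their calls in 8, 9 and 10 of 17 alternatives. Zfp36l1 had 1572 ± 78.4 FPKM at P5 and 1625 ± 263 at P30 (SD, n = 3), a difference within the spread between isolations. Zfp36l2 had 371 ± 18.5 and 565 ± 136 (SD, n = 3, adjusted p = 0.0335 from limma). Of the other dual-specificity phosphatases of the Dusp family, 10 were tested and 3 rose past the limits, against 5.89% of all genes tested. These were Dusp5, Dusp8 and Dusp2, by 2.29, 1.67 and 1.09 on the log2 scale. Dusp6, which acts on ERK, had 1047 ± 68.1 FPKM at P5 and 768 ± 26.0 at P30 (SD, n = 3), a log2 fold change of -0.44 that did not reach 2-fold. Dusp6 lies outside the rule for named genes and was chosen after its values had been seen.

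A wider list of genes known for rapid induction by growth factors, cytokines, hormones or stress held 40 genes, all of which were tested. Of these, 29 rose and 0 fell past the limits, against 5.89% of all genes tested that rose, and the median log2 fold change was 1.77. The largest rises were those of Il6, a cytokine (4.04 ± 2.13 FPKM at P5 and 135 ± 126 at P30, SD over 3 isolations, log2 fold change 4.46 with an SE of 0.61 and a limma adjusted p = 0.00178), and Ptgs2, the inducible prostaglandin synthase (11.9 ± 4.34 to 163 ± 107, log2 fold change 3.54 with an SE of 0.46 and a limma adjusted p = 0.00143). Next came Csrnp1, a nuclear protein, from 112 ± 40.8 to 1211 ± 172 FPKM, and Cebpb, a factor of the acute phase response, from 61.0 ± 7.41 to 729 ± 338 (SD, n = 3), by 3.47 each on the log2 scale. The 11 genes that did not pass had log2 fold changes between -0.39 and 1.45. Myc, a classical immediate early gene and outside the rule for named genes, was among them at 59.9 ± 13.4 and 47.7 ± 21.5 FPKM (SD, n = 3, adjusted p = 0.358 from limma).

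Of the kinases and factors that act above these genes, 31 were tested, and 0 rose and 0 fell past the limits. Over all genes tested 5.89% rose and 5.82% fell, so in a list of this size a count of 0 is near the background. At an unadjusted limma p under 0.05, the higher age was P30 for 4 of them and P5 for 10, and those whose adjusted p from limma was under 0.01 did not reach 2-fold. The median log2 fold change was -0.12, near that of all genes. The largest difference was that of Elk3, an SRF partner, at 991 ± 14.2 FPKM at P5 and 554 ± 9.39 at P30 (SD, n = 3, log2 fold change -0.84 with an SE of 0.08 and a limma adjusted p = 0.000457). Mapk3, which encodes the kinase ERK1, had 637 ± 68.8 and 647 ± 63.5 FPKM (SD, n = 3). These kinases and factors are activated by phosphorylation, which RNA does not measure.

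Heat shock genes, which encode chaperones and are also induced by handling of cells, rose in part. Of 18 tested, 5 rose and 0 fell, against 5.89% and 5.82% of all genes tested, with a median log2 fold change of 0.66. Hspb1 had 58.5 ± 12.3 FPKM at P5 and rose to 410 ± 46.9 at P30 (SD over 3 isolations, log2 fold change 2.80 with an SE of 0.17 and a limma adjusted p = 0.000122). Cryab, Dnajb1 and Dnajb4 rose by 2.52, 1.48 and 1.10 on the log2 scale, and Cryab and Dnajb4 kept their calls in 11 and 9 of 17 alternatives. Hspa1a and Hspa1b, near-identical copies whose reads may have been split, had 83.2 ± 22.1 and 85.9 ± 19.97 FPKM at P5 and 346 ± 215 and 325 ± 206 at P30 (SD, n = 3), and did not pass (adjusted p = 0.0136 and 0.0183 from limma). They lie outside the rule for named genes.

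**Figure D5:**
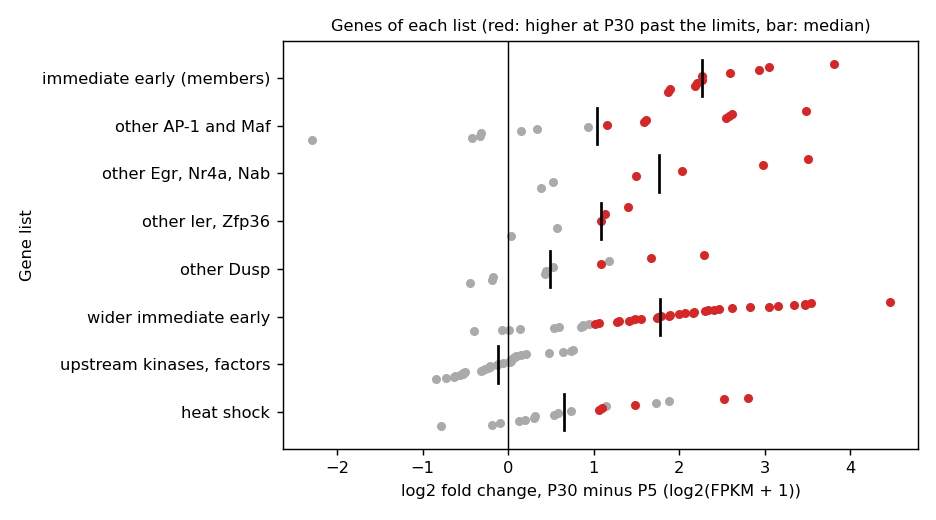
Log2 fold change (P30 minus P5) of the tested genes of 8 lists, 1 point per gene, red where past the limits and higher at P30 and grey otherwise, with a black bar at the median. The medians lie at 2.27 for the 10 immediate early genes, 1.77 for the wider list, 0.66 for the heat shock genes and -0.12 for the upstream kinases and factors.

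Markers of other cells in the RPE/choroid varied between the isolations. Their calls are given beside the 5.89% of all genes tested that rose and the 5.82% that fell, and in lists this short a count of 0 or 1 cannot be told apart from that background. At an unadjusted limma p under 0.05, the RPE list had 7 of 7 tested genes higher at P30. The photoreceptor and smooth muscle lists had 5 of 6 each, the pericyte list 5 of 7 and the fibroblast list 4 of 7. The Schwann cell list had 4 of 6, the erythroid list 2 of 5 and the pigment cell list 0 of 6. The leukocyte list had 0 of 10 higher and 6 lower at P30. The share of all genes tested at this p is not given here. Of the RPE list, 6 of 7 tested genes rose, and its summed FPKM was 91.3 to 178 at P5 and 3939, 2228 and 554 in the P30 isolations. Of the photoreceptor list 3 of 6 rose (2.21 to 8.49 and 41.8 to 371), of the smooth muscle list 2 of 6 (560 to 595 and 716 to 1469), and of the pericyte list 1 of 7 (468 to 1712 and 1841 to 6228). Of the fibroblast list 1 of 7 rose (742 to 1212 and 1815 to 4557), of the Schwann cell list 1 of 6 (192 to 318 and 865 to 1184), and of the pigment cell list 0 of 6 (98.4 to 463 and 121 to 1262) and the erythroid list 0 of 5 (175 to 491 and 442 to 1830). Of the leukocyte list 0 of 10 rose and 4 fell, with sums of 886 to 1195 at P5 and 357 to 984 at P30. At P5, 3 genes of the photoreceptor list and 1 of the erythroid list were listed at 0 in every isolation. The part of these cells in the rise of the immediate early genes was not tested. P5 replicate 1, highest of the P5 isolations in the 10 genes, also had the highest sum of them for each of these lists but not for the endothelial list. Some of these sums were close to the next highest. Replicates 1 and 3 had 1212 and 1208 for fibroblast, 8.49 and 7.92 for photoreceptor and 595 and 571 for smooth muscle. The leukocyte sums were 1195 and 1163 in replicates 1 and 2. Single genes did not all follow the sum of their list, and Dcn and Smtn were highest in P5 replicate 3. At P30, the sums of the 10 immediate early genes were 50306, 63647 and 51015 in replicates 1 to 3. The pericyte sums (1841, 6228 and 3819) and the fibroblast sums (1815, 4557 and 2413) stood in the same order. Those of the other marker lists did not. This match rests on a small gap between replicates 1 and 3. By the mean log2(FPKM + 1) of the 10 genes (12.08, 12.40 and 12.07), replicate 1 lay above replicate 3. The smooth muscle sums (902, 1469 and 716) and the erythroid sums (1385, 1830 and 442) stood in that order. The pericyte and fibroblast sums did not. An order of 3 pools is a description, and a link to any cell type was not tested.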

How the data were processed

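RNAseq of sorted choroid ECs from 3 P5 and 3 P30 isolations was used. Per the labels and methods, the authors called bases with CASAVA 1.8.2, checked reads with FastQC, aligned them with TopHat to mm9 and made the deposited FPKM values with CuffLinks, corrected for GC content and upper quartile. Versions of TopHat and CuffLinks and the annotation are not given in the sources used here. FPKM hold no counts, so the study's count model could not be used. Instead, limma 3.58.1 (R 4.3.3, eBayes with trend) was fitted to log2(FPKM + 1), and 12481 genes whose average reached 5 FPKM in P5 or P30 were tested. Calls needed an adjusted p under 0.01, by the method of Benjamini and Hochberg, together with a 2-fold difference in mean FPKM + 1. A log2(FPKM + 1) difference understates the change of low genes. Limma p-values weigh the difference between ages against the spread between isolations, drawn towards a trend over all genes. Spread between animals is not measured. Genes named in the text were all 10 immediate early genes and all of the AP-1, Egr/Nr4a and Ier/Zfp36 families, the 4 largest called changes of each other list in each direction (or the 2 most abundant genes), and the 5 genes most correlated with the 10. One gene under this rule is not reported here. Members and lists were chosen with earlier results of these data known. Motifs were searched with Python 3.11.15. The fit was tested on simulated data.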

Additional observations from a re-analysis of the deposited data

How the results depend on the processing

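With no minimum on FPKM, genes higher at P30 went from 735 to 242, genes higher at P5 from 726 to 296, the 10 immediate early genes called from 10 to 3, and the other listed genes called higher at P30 from 51 to 23; the cause was not tested. Under each of the other 16 alternatives all 10 immediate early genes were called. Leaving out 1 isolation gave 396 (without P5 replicate 3) to 849 genes higher at P30 and 291 (without P5 replicate 2) to 754 higher at P5. It gave 0 to 1 listed genes called higher at P5, against 0 with all isolations (Batf3 without P30 replicate 2). Quantile normalization and an equal sum of FPKM each called 1 (Elk3). Same-numbered isolations did not deviate together (correlations of -0.06, -0.09 and -0.03), and with the replicate number as a block 10 immediate early genes and 46 other listed genes were called higher at P30, and 585 and 524 of all genes higher at P30 and at P5. No immediate early gene, other listed gene or marker that was called changed direction under any alternative. Some that were not called did. Examples are Zfp36l1, with a log2 fold change of 0.04 and a lowest value over the alternatives of -0.38, Hspa5 (0.31 and -0.09) and Emcn (0.88 and -0.01). Depth is unknown, and 3 pools an age limit the precision.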
